A study of Homo sapiens with 6 samples.

Results

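The adaptor protein complex AP-3 was examined through its 7 subunit genes, AP3D1, AP3B1, AP3B2, AP3M1, AP3M2, AP3S1 and AP3S2. They are among the 58735 genes of a count table from BE(2)-C cells with ACSS2 knocked down and from control BE(2)-C cells. All 7 were found by gene name, and all 7 were among the 16210 genes expressed highly enough to be tested. The family was chosen from measured values, because AP3B2 stood among the largest falls already seen in these libraries, so the contrast describes the 7 genes and is no test of them. AP-3 is a coat of 4 subunits that picks up membrane proteins on early endosomes and the trans-Golgi and sends them to lysosomes and lysosome-related organelles. The ubiquitous form, AP-3A, joins the δ subunit to β3A, μ3A and one of the σ3 subunits, and its loss in people gives a form of Hermansky-Pudlak syndrome, with pale skin and a bleeding tendency. Neurons also carry AP-3B, in which β3B and μ3B take the places of β3A and μ3A, and which in mice sorts proteins into synaptic vesicles.

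BE(2)-C is a human neuroblastoma cell line. The shACSS2 group comprised 3 libraries from cells infected with a lentivirus that carried a hairpin against ACSS2, the enzyme that makes acetyl-CoA from acetate in the nucleus and cytosol. The NS group comprised 3 libraries from cells infected with a non-silencing hairpin, and both were kept as stable lines under puromycin. The titles write the knockdown as siACSS2 and the treatment text once names a shNgBR line, so the groups here follow the titles. The labels do not state separate cultures for the libraries of one group, and p-values then measure only the spread between these libraries, which may be technical.

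Library totals ran from 16617885 to 18133801 read counts in shACSS2 and from 17073662 to 20831599 in NS. ACSS2 had 75, 84 and 110 counts in the shACSS2 libraries, against 366, 387 and 438 in the NS libraries, and its log2 fold change was −1.94 (SE 0.145, adjusted p = 1.95e-06, edgeR quasi-likelihood test). The label of a neuroblastoma line was not borne out by all of its markers. Of 14 adrenergic neuroblastoma markers, 6 were high enough to be tested. PHOX2A and TH had 0 counts in all 6 libraries, which over all counts allows up to 0.0277 CPM. The list summed to 43.5 to 50.5 CPM in shACSS2 and 40.5 to 46.4 CPM in NS, of which GATA3 and ISL1 made up most. GATA3 had 21.8 ± 0.783 CPM in shACSS2 and 20.3 ± 2.38 CPM in NS (SD, n = 3 each). In the same order ISL1 had 18.5 ± 1.25 and 13.0 ± 1.05 CPM, and HAND2 3.66 ± 1.01 and 2.88 ± 0.481 CPM. MYCN, the oncogene amplified in many neuroblastomas, stood at 0.787 ± 0.308 CPM in shACSS2 and 1.75 ± 0.313 CPM in NS (SD, n = 3 each). Of 15 neuronal markers, 8 were high enough to be tested, and the list summed to 502 to 573 CPM in shACSS2 and 529 to 587 CPM in NS, of which NEFL, NEFM and UCHL1 made up most. Of 10 embryonic kidney markers 7 were tested, with a list sum of 171 to 194 CPM in shACSS2 and 186 to 192 CPM in NS. The cells are called here by their label. In bulk RNA, fewer cells of a type and less RNA per cell cannot be told apart.

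Of the 7 AP-3 genes, AP3B2 alone passed the test across all genes, and it fell by 1.51 on the log2 scale in shACSS2. None of the other 6 passed it, and their log2 fold changes lay between −0.00 and 0.19. In the same fit, 9.64% of all genes tested were called lower, beside 1 of 7 AP-3 genes, and 7.48% were called higher, beside 0 of 7. No AP-3 gene was higher at an unadjusted p under 0.05 either, and DESeq2 and limma voom likewise called 0 higher and 1 lower. In CPM, read counts scaled to a common library size after TMM composition factors, the groups did not overlap for 2 members that were higher in shACSS2, AP3B1 and AP3M2, where 17.6% of all genes did so. They did not overlap for 1 that was lower, AP3B2, where 18.7% of all genes did so, and the other 4 members overlapped. The median log2 fold change was 0.13 over the 7 genes and 0.00 over all genes tested. Since the contrast led to the choice of the family, nothing is read from these counts.

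**Figure D1:**
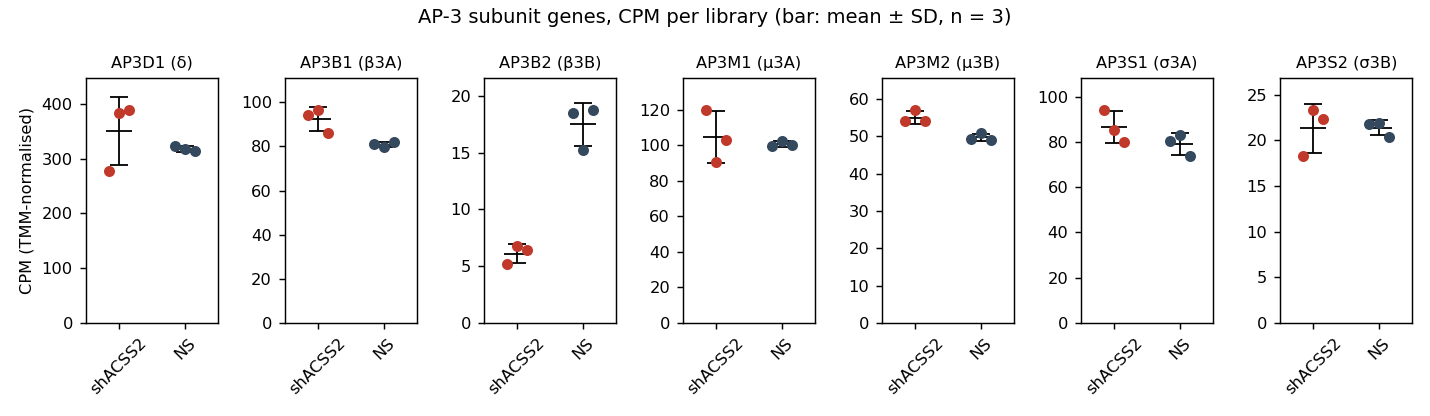
Expression of the 7 AP-3 subunit genes in CPM (TMM-normalised, linear axes from 0), with each library as a point and the mean ± SD of 3 libraries as bars, shACSS2 left and NS right in each panel. The AP3B2 panel shows 5.17 to 6.79 CPM in shACSS2 against 15.3 to 18.7 CPM in NS, while the means of the other panels lie close together.

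AP3D1 encodes δ, the large subunit that both forms of AP-3 share and without which the complex is not stable. It lies on chromosome 19 at 2100988 to 2164468, minus strand (GENCODE v29, GRCh38, as for all positions here). AP3D1 had 278, 383 and 388 CPM in the shACSS2 libraries, against 324, 317 and 313 CPM in the NS libraries. The NS libraries stood close together, whereas shACSS2 replicate 1 lay below all of them and replicates 2 and 3 above, so the groups overlapped. The log2 fold change was 0.14 (SE 0.115, 95% interval −0.11 to 0.38), which did not pass the test. Without shACSS2 replicate 1 it was 0.28 (SE 0.0688) and passed, so that 1 library decided on which side of the threshold AP3D1 stood.

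The spread of AP3D1 is set here beside the GC content of the genes. AP3D1 is the most GC-rich of the 7, with 59.2% GC in its longest annotated transcript. Across 16201 genes, the deviation of a library from its group mean had a Spearman correlation with GC content of −0.61 in shACSS2 replicate 1, 0.48 in replicate 2 and 0.39 in replicate 3, against 0.11, −0.09 and 0.00 in the NS libraries. On the log2 scale, AP3D1 was 0.47 lower in shACSS2 replicate 1 than the mean of replicates 2 and 3, and AP3M1, at 41.2% GC, was 0.31 higher there. Between AP3D1 and AP3M1 in falling order of GC content, AP3S2 was 0.32 lower there, AP3M2 0.04 lower and AP3S1 0.18 higher. AP3B1, with the lowest GC content at 38.7%, was 0.05 higher there, less than AP3S1 and AP3M1. AP3B2 was 0.34 lower there at 43.9% GC. That is the value of a long transcript with a short coding part, so the place of AP3B2 against GC content cannot be judged. With a GC correction chosen after seeing the data, the log2 fold change of AP3D1 was 0.14 and that of AP3B2 was −1.53. Over all settings that kept the 6 libraries, AP3B2 stayed between −1.59 and −1.51. The correction used the same GC value for AP3B2, so it says little about that gene. The part of GC content in the spread of AP3D1 was not tested.

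**Figure D2:**
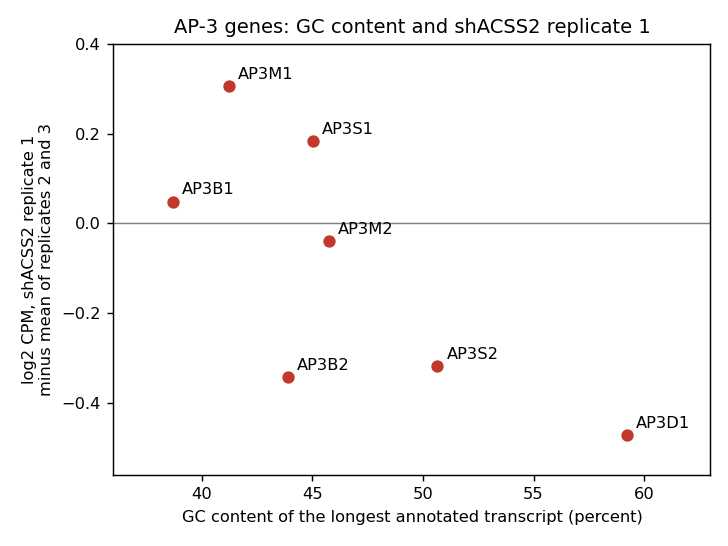
GC content of the longest annotated transcript in percent (x axis) and the log2 CPM of shACSS2 replicate 1 minus the mean of replicates 2 and 3 (y axis), 1 point for each AP-3 gene. AP3D1, at 59.2% GC, lies lowest at −0.47, and AP3M1, at 41.2% GC, highest at 0.31.

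AP3B2 was the AP-3 gene that differed most between the groups. It encodes β3B, the large subunit found in neurons, and loss of AP3B2 in people gives an epileptic encephalopathy of infancy. The gene lies on chromosome 15 at 82659281 to 82709914, minus strand. AP3B2 had 83, 111 and 114 read counts in the shACSS2 libraries, or 5.17, 6.79 and 6.38 CPM, against 324, 289 and 406 counts in the NS libraries, or 18.4, 15.3 and 18.7 CPM. Every shACSS2 library lay below every NS library, with a wide gap between the groups. The means were 6.11 ± 0.843 CPM in shACSS2 and 17.5 ± 1.92 CPM in NS (SD, n = 3 each), a log2 fold change of −1.51 (SE 0.155, 95% interval −1.84 to −1.19), or 0.350 of the NS level (0.279 to 0.440). AP3B2 passed the test in all 15 other settings tried, and with each library left out in turn its log2 fold change ran from −1.60 to −1.41. Of the nearest tested coding genes on either side, picked after their values were seen, WHAMM, an actin nucleation factor, stood at 0.07 (SE 0.137) and CPEB1, an RNA-binding regulator of translation 10420 bases away, at 0.63 (SE 0.196). CPEB1 passed the test with all libraries (adjusted p = 0.0368, edgeR), but with a library left out it passed only without NS replicate 2, with an adjusted p (edgeR) of up to 0.174 elsewhere.

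AP3B1 encodes β3A, the large subunit of the ubiquitous form and the one altered in that form of Hermansky-Pudlak syndrome. It lies on chromosome 5 at 78000525 to 78294755, minus strand. AP3B1 had 94.3, 96.4 and 86.3 CPM in the shACSS2 libraries, against 80.9, 79.8 and 82.0 CPM in the NS libraries. The groups did not overlap, although shACSS2 replicate 3 stood close to NS. The log2 fold change was 0.19 (SE 0.0931, 95% interval −0.01 to 0.39), which did not pass the test.

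Set against each other, the β genes differed between the groups in share and hardly in sum. AP3B2 made up 5.19%, 6.58% and 6.89% of the read counts of the β pair in the shACSS2 libraries, against 18.6%, 16.1% and 18.6% in the NS libraries. The exact 95% binomial intervals, which cover counting error only, reached at most 8.22% in shACSS2 and began at 14.4% in NS. The choice of the family used these same counts, so the gap is a description and nothing is read from it. The mean share was 6.22 ± 0.902% in shACSS2 and 17.7 ± 1.45% in NS, a difference of −11.5 percentage points. Per kilobase of annotated exon, AP3B1 and AP3B2 together came to 13.3 ± 0.726 CPM per kb in shACSS2 and 13.0 ± 0.352 CPM per kb in NS (SD, n = 3 each), which differed by less than the spread of either group. These are RNA levels, and the table gives no measure of the proteins.

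**Figure D3:**
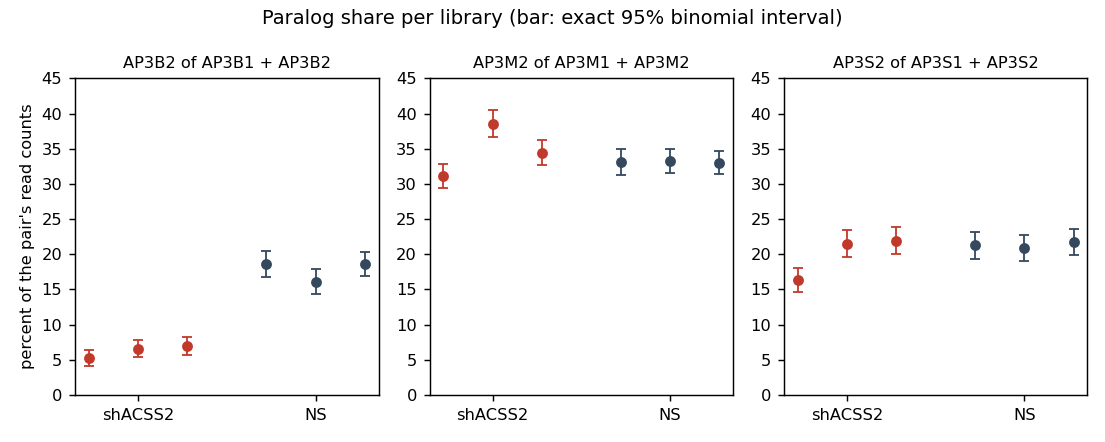
Share of the neuronal or second paralog in the read counts of its pair, in percent, for the β (AP3B2), μ (AP3M2) and σ (AP3S2) genes, with each library as a point and exact 95% binomial intervals as bars, the shACSS2 libraries left and the NS libraries right. In the β panel 5.19 to 6.89% in shACSS2 lie below 16.1 to 18.6% in NS, and in the other panels the groups overlap.

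Short matches in the AP3B2 transcripts are shown for a pair of 7-letter words, ATGCTCA and TGCTCAA, which share the letters TGCTCA. The words were picked from these same fold changes as ones held by genes lower in shACSS2, so a match is a description and supports nothing. They were searched on the sense strand of the coding transcripts of the 7 genes in the GENCODE v29 basic set. In AP3B2 the 3′ UTR matches are all in 1 of its 6 transcripts, ENST00000542200.2, which has 5 exons, codes for 141 amino acids and ends within the gene in a 3′ UTR of 3342 bases. The other 5 AP3B2 transcripts have 25 to 27 exons and 3′ UTRs of 23 to 279 bases with no match, and each holds 2 matches in its coding part. The windows follow, 5′ to 3′ on the minus strand of chromosome 15 of GRCh38, from the GENCODE v29 transcripts, with the matched word in capitals.
AP3B2 3′ UTR, chr15:82687707-82687735: gacaggattgcTGCTCAAatccagggccc
AP3B2 3′ UTR, chr15:82685621-82685649: tcccaaataaaATGCTCAcacacaaaaaa
AP3B2 3′ UTR, chr15:82685107-82685135: tgccacaaaccATGCTCAgacatgaaagt
AP3B2 coding, chr15:82680867-82680895: tcatcatcagcATGCTCAcccgctacgcc
AP3B2 coding, chr15:82664908-82664936: aatggaccaagTGCTCAAatcgggagaag
AP3S2 3′ UTR, chr15:89833789-89833817: tttgtgcccacTGCTCAAtacagcctccg

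AP3S2, which did not pass the test, holds its 1 match in the 3′ UTR of 4916 bases of 1 of its 4 transcripts. The other 5 members have none in the transcripts searched. Among all genes tested, 17.95% of 13262 longest 3′ UTRs of at least 50 bases and 23.0% of 13416 longest coding sequences hold either word. In the 3′ UTR the share was 43.9% among genes lower in shACSS2, 6.75% among genes higher and 16.0% among those not past the test. In the coding part it was 39.9%, 12.1% and 22.1% in the same order. The words were picked from these same fold changes, so these splits are descriptions and support nothing. The median 3′ UTR lengths of these classes were 2228.5, 938 and 1376 bases, and the median coding lengths 2235, 994.5 and 1446 bases. The classes with more matches also had longer sequences, and the part of length in these shares was not tested. Read counts per gene cannot say which AP3B2 transcript the cells made, and whether a match bears on the fall of AP3B2 was not tested.

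**Figure D4:**
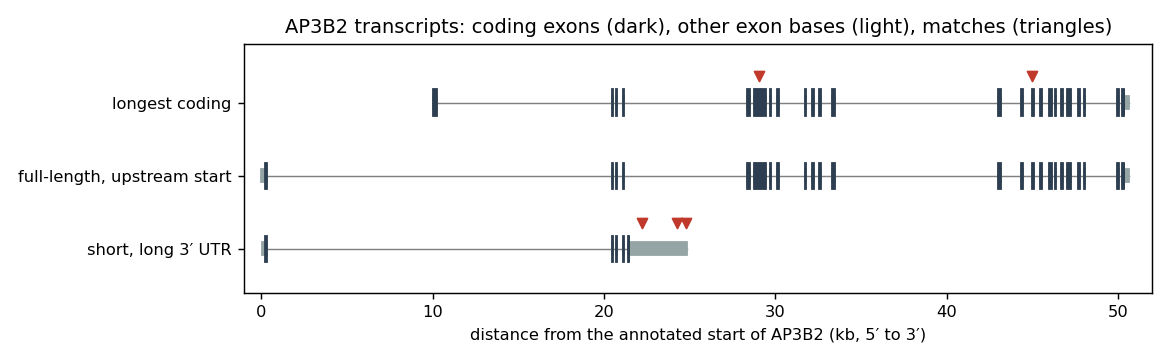
Map of 3 annotated AP3B2 transcripts, to scale in kilobases from the annotated start of the gene, with coding exons dark, other exon bases light and matches to either 7-letter word as triangles. The 3 matches in a 3′ UTR lie on the short transcript, and the 2 coding matches are drawn on the longest coding transcript.

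The σ subunits are the smallest and serve both forms of AP-3. AP3S1, which encodes σ3A on chromosome 5 at 115841481 to 115914081, plus strand, had 93.9, 85.2 and 80.1 CPM in the shACSS2 libraries, against 80.6, 83.1 and 73.8 CPM in the NS libraries. AP3S2, which encodes σ3B on chromosome 15 at 89830599 to 89894638, minus strand, had 18.3, 23.3 and 22.4 CPM in the shACSS2 libraries, against 21.7, 21.9 and 20.4 CPM in the NS libraries. The groups overlapped for both genes, and as with AP3D1 the lowest AP3S2 value was that of shACSS2 replicate 1. Their log2 fold changes were 0.13 (SE 0.0994, 95% interval −0.08 to 0.34) for AP3S1 and −0.00 (SE 0.124, 95% interval −0.26 to 0.26) for AP3S2, and neither passed the test. AP3S2 made up 16.3%, 21.5% and 21.9% of the counts of the σ pair in shACSS2, against 21.3%, 20.9% and 21.7% in NS, so these shares overlapped.

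AP3S1 shares 378 exon bases, 11.8% of its exon length, with ATG12 on the opposite strand, a ubiquitin-like protein of autophagosome formation. Whether the counting used strand is not stated in the sources, and without strand the reads from the shared bases cannot be told apart. ATG12 itself stood at 0.37 on the log2 scale (SE 0.103, adjusted p = 0.0217, edgeR), a call lost without NS replicate 1, 2 or 3, where the adjusted p ran up to 0.133. AP3S2 shares 1953 exon bases with a readthrough gene on the same strand that held 2 counts in all libraries, and reads that match both may have been dropped.

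The μ subunits recognise tyrosine-based sorting signals in the tails of cargo proteins. AP3M1, which encodes the ubiquitous μ3A on chromosome 10 at 74120255 to 74151063, minus strand, had 120, 90.8 and 103 CPM in the shACSS2 libraries, against 99.6, 102 and 99.9 CPM in the NS libraries. AP3M2, which encodes the neuronal μ3B on chromosome 8 at 42152946 to 42171673, plus strand, had 54.0, 57.0 and 54.1 CPM in the shACSS2 libraries, against 49.4, 50.9 and 49.1 CPM in the NS libraries. AP3M1 overlapped, with shACSS2 replicate 1 its highest library, whereas for AP3M2 every shACSS2 library lay above every NS library by a small step. The log2 fold changes were 0.05 (SE 0.106, 95% interval −0.17 to 0.28) for AP3M1 and 0.15 (SE 0.0957, 95% interval −0.06 to 0.35) for AP3M2, and neither passed the test. Scaled to plain library totals, AP3M2 stood at 0.07, AP3M1 at −0.02 and AP3S2 at −0.07. Single libraries moved these small values too: AP3M1 was −0.05 without shACSS2 replicate 1 and 0.15 without shACSS2 replicate 2, and AP3S2 was 0.10 without shACSS2 replicate 1 and −0.06 without shACSS2 replicate 2. No direction is given for either gene.

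AP3M2, the partner of β3B in the neuronal form, was thus not lower in shACSS2 as AP3B2 was. Its share of the counts of the μ pair was 31.1%, 38.6% and 34.4% in the shACSS2 libraries, against 33.1%, 33.2% and 33.0% in the NS libraries. The exact intervals of the NS libraries overlapped, and the shACSS2 libraries spread to both sides of them. AP3M1 shares 1109 exon bases, 18.8% of its exon length, with VCL on the opposite strand, the gene of the focal adhesion protein vinculin, which had 156 ± 8.24 CPM in shACSS2 and 172 ± 9.62 CPM in NS and differed by −0.14 on the log2 scale (SE 0.0928, not past the test).

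Levels of different genes were compared per kilobase of annotated exon. In both groups the order was AP3D1, AP3S1, AP3M1, AP3B1, AP3M2, AP3S2 and AP3B2, and each neighbour in that order stood apart in every library. AP3D1 reached 40.6 ± 7.20 CPM per kb in shACSS2 and 36.9 ± 0.601 CPM per kb in NS (SD, n = 3 each), and AP3S1 reached 27.02 ± 2.18 and 24.8 ± 1.50 CPM per kb in the same groups. AP3B2 was lowest, at 0.671 ± 0.0926 CPM per kb in shACSS2 and 1.92 ± 0.211 CPM per kb in NS, next to AP3S2 at 2.31 ± 0.288 and 2.31 ± 0.0888 CPM per kb. The neuronal β3B gene was thus the scarcest AP-3 gene in the NS libraries too, whereas the neuronal μ3B gene AP3M2 had 8.77 ± 0.269 CPM per kb in shACSS2 and 7.93 ± 0.153 CPM per kb in NS. Summed by place in the complex per kilobase of exon, δ had 40.6 CPM per kb in shACSS2 and 36.9 in NS, σ had 29.3 ± 1.94 and 27.1 ± 1.59, μ had 26.4 ± 2.23 and 24.9 ± 0.405, and β was lowest with 13.3 and 13.0.

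The order depends on which length is used, since annotated exons hold long 3′ UTRs. Per kilobase of coding sequence, a choice added after seeing the data, AP3S1 came first with 149 CPM per kb in shACSS2 and 137 in NS, and AP3D1 second with 95.9 and 87.2. AP3B1 moved behind AP3S2, and AP3D1 and AP3M1 overlapped in shACSS2. AP3B2 stayed last, at 1.81 CPM per coding kb in shACSS2 and 5.18 in NS. By place in the complex, σ then came first with 184 ± 8.66 CPM per coding kb in shACSS2 and 171 ± 9.61 in NS, followed by μ with 127 ± 10.4 and 119.9 ± 1.95 and δ with 95.9 ± 17.02 and 87.2 ± 1.42. The β genes were again lowest, with 29.9 ± 1.62 and 29.8 ± 0.882.

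The genes whose pattern over the 6 libraries was most like that of AP3B2 were CHSY1, SELENBP1 and GLCCI1, each with a Pearson r of 0.998 in log2 CPM among 11894 genes with at least 5 CPM. The 6 points fall into the 2 groups, so r mostly repeats the difference between them. CHSY1, a chondroitin synthase, had a log2 fold change of −0.75, SELENBP1, a selenium-binding protein, one of −0.38, and GLCCI1, a glucocorticoid-induced gene, one of −0.82. SELENBP1 lost its call without NS replicate 1 or 3 or shACSS2 replicate 3, with an adjusted p (edgeR) of at most 0.0900. For AP3D1, the member with the highest CPM, the 3 genes were XPO6, FBXW5 and ECE1, with r from 0.995 to 0.997. None of the 3 passed the test with all libraries, and FBXW5 and ECE1 passed it without shACSS2 replicate 1, as AP3D1 did, with adjusted p of 0.00963 and 0.0155 (edgeR) there.

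The other adaptor complexes give the frame for AP-3. Of the 8 AP-1 genes, whose complex works between trans-Golgi and endosomes, 3 rose and 1 fell, 4 stayed short of the threshold, and the median log2 fold change was 0.13. DESeq2 called 2 AP-1 genes higher and 1 lower. For this and each list below, 7.48% of all genes tested were called higher and 9.64% lower, and no list was tested as a set. AP1S1 and AP1S3, which encode σ1 subunits, rose by 0.51 (SE 0.0951, adjusted p = 0.00239) and 0.65 (SE 0.129, adjusted p = 0.00377). AP1G2, which encodes a γ subunit, fell to 15.9 ± 1.72 CPM in shACSS2, against 24.5 ± 4.42 CPM in NS, a log2 fold change of −0.63 (adjusted p = 0.00886). That call was lost without NS replicate 3 (adjusted p = 0.0651). The third gene that rose, AP1M2, stood at 1.32 CPM in shACSS2 and 0.464 CPM in NS, and lost its call without NS replicate 1 or 3 or shACSS2 replicate 2, at adjusted p of up to 0.0767. All adjusted p-values of listed genes are from edgeR over all genes tested.

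Of the 5 AP-2 genes, whose complex works in endocytosis at the plasma membrane, 2 rose, 3 stayed short of the threshold, and the median was 0.19. AP2B1 and AP2S1 had log2 fold changes of 0.32 (adjusted p = 0.0194) and 0.32 (adjusted p = 0.0294). Both lost their calls without NS replicate 1 or 3 or shACSS2 replicate 2 or 3, where the adjusted p ran up to 0.114 for AP2B1 and 0.147 for AP2S1, and both lost them when scaled to library totals. None of the 5 AP-4 genes passed the test (edgeR), at an unadjusted p under 0.05 or by DESeq2 or voom, and their median was −0.02. Of the 6 AP-5 genes 1 fell, SPG11, which encodes a partner of that complex altered in hereditary spastic paraplegia, with 37.4 ± 1.71 CPM in shACSS2 and 53.5 ± 4.15 CPM in NS (log2 fold change −0.52, adjusted p = 0.00389). Among the genes tested from the 5 complexes, AP3B2 had the lowest log2 fold change, as its choice implies.

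**Figure D5:**
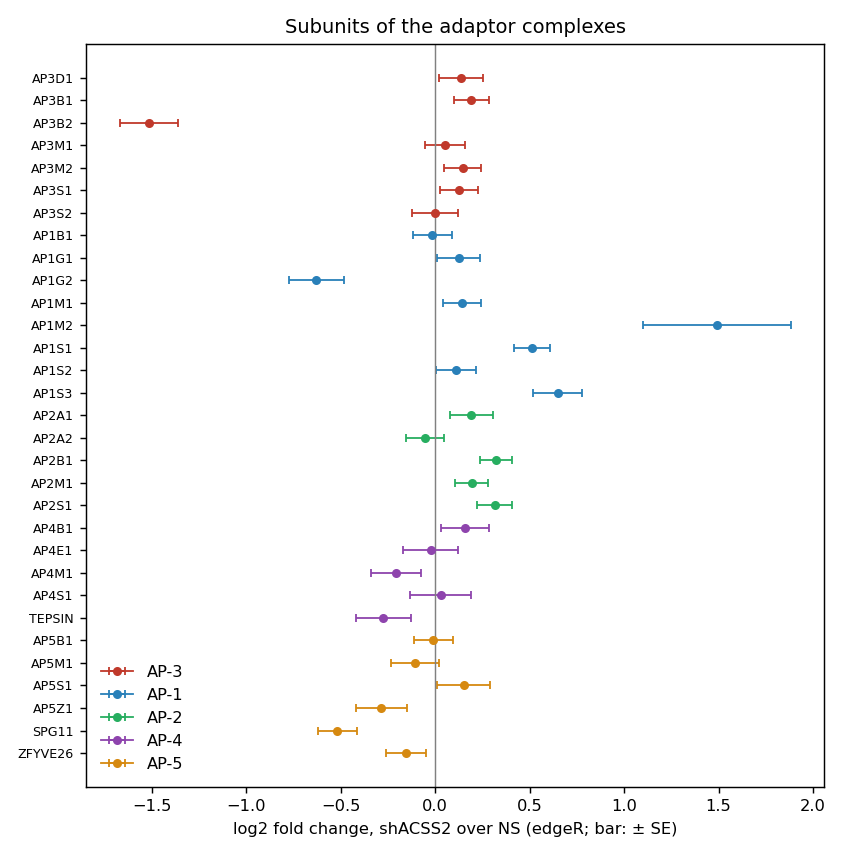
Log2 fold change of shACSS2 over NS (x axis, edgeR, bars ± SE) for the tested subunits and partners of the 5 adaptor complexes, coloured by complex. AP3B2 lies at −1.51, the other AP-3 genes between −0.00 and 0.19, and AP1M2, which has few reads, has the widest bar.

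Clathrin and the GGA adaptors, monomeric coats of the trans-Golgi, passed the test in 1 of 7 genes by edgeR. DESeq2 called 1 gene of this list higher and 1 lower. CLTC, the clathrin heavy chain, fell to 352 ± 32.9 CPM in shACSS2, against 458 ± 9.03 CPM in NS (log2 fold change −0.38, adjusted p = 0.0131, edgeR), and the median of the list was 0.05. The call was lost without NS replicate 1 or shACSS2 replicate 2 or 3, at adjusted p of up to 0.0715.

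The complexes that act with AP-3 in making lysosome-related organelles passed the test in few genes or none. None of the 8 BLOC-1 genes passed the test, with 2 higher at an unadjusted p under 0.05 and 0 by DESeq2 or voom. The lowest p-values were those of BLOC1S2, with a log2 fold change of 0.30 (adjusted p = 0.0683, edgeR), and DTNBP1, the dysbindin gene, with 0.27 (adjusted p = 0.0985, edgeR). DTNBP1 passed without shACSS2 replicate 1 (adjusted p = 0.0283, edgeR). None of the 5 BLOC-2 and BLOC-3 genes passed it either, with 1 higher at an unadjusted p under 0.05 and 0 by DESeq2 or voom. HPS5 stood at 0.25 (adjusted p = 0.114, edgeR) and HPS1 at −0.11. With the GC correction BLOC1S2, DTNBP1 and HPS5 passed the test. The medians were 0.13 for BLOC-1 and −0.02 for BLOC-2 and BLOC-3.

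Of the 10 genes of the HOPS, CORVET and CHEVI tethers, which hold endosomes and lysosomes together before fusion, 3 fell, beside 9.64% of all genes tested. The other 7 stayed short of the threshold, and the median was −0.12. The 3 that fell were VPS18, at −0.38 (adjusted p = 0.0485, edgeR), VPS39, at −0.34 (adjusted p = 0.0403, edgeR), and TGFBRAP1, at −0.33 (adjusted p = 0.0374, edgeR). All 3 calls stood near the threshold. VPS18 kept its call only without shACSS2 replicate 2, VPS39 only without shACSS2 replicate 1, and TGFBRAP1 only without NS replicate 2 or shACSS2 replicate 1, and elsewhere the adjusted p ran up to 0.195, 0.149 and 0.179 in that order. TGFBRAP1 also lost its call with no expression filter (adjusted p = 0.0548, edgeR). VPS41, a HOPS subunit that has itself been tied to AP-3 vesicles in yeast, had 57.1 ± 5.02 CPM in shACSS2 and 60.02 ± 1.96 CPM in NS and did not pass the test.

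The recruitment of AP-3 to membranes needs ARF1, a small GTPase. Of 8 tested genes for recruitment and partners 2 rose and 1 fell, 5 stayed short of the threshold, and the median was −0.09. ARF1 had 912 ± 38.6 CPM in shACSS2 and 702 ± 20.02 CPM in NS (log2 fold change 0.38, adjusted p = 0.00918, edgeR), a call lost without NS replicate 1 (adjusted p = 0.0726). Its paralog ARF3 moved the other way, with 133 ± 9.75 CPM in shACSS2 and 203 ± 5.55 CPM in NS (log2 fold change −0.61, adjusted p = 0.000588, edgeR). RAB32, a GTPase of melanosome transport, stood at 0.48 (adjusted p = 0.0363, edgeR) and kept its call only without NS replicate 2, with adjusted p of up to 0.177 elsewhere. Without NS replicate 3 it stood at 0.30. AGAP1, a GTPase-activating protein that binds AP-3, and PI4K2A, a lipid kinase that AP-3 both carries and is recruited by, did not pass the test, at −0.23 (SE 0.113) and 0.04 (SE 0.106).

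Among cargo proteins of AP-3, 1 of 8 tested genes fell, 7 stayed short of the threshold, and the median was −0.13. LAMP1, an abundant glycoprotein of the lysosome membrane, fell to 50.8 ± 0.742 CPM in shACSS2, against 78.3 ± 4.44 CPM in NS (log2 fold change −0.63, SE 0.0959, adjusted p = 0.000619, edgeR). It kept its call with each library left out. The lysosome membrane proteins LAMP2, SCARB2 and CD63 stood at −0.24, −0.17 and 0.22, and VAMP7, a fusion protein that AP-3 carries through its δ subunit, at −0.11, all short of the test. SLC30A3, the synaptic vesicle zinc transporter that AP-3B sorts in mice, had 16.4 ± 1.65 CPM in shACSS2 and 14.4 ± 0.988 CPM in NS, and CLCN3, a chloride transporter sorted with it, 66.6 ± 9.54 and 73.6 ± 2.66 CPM. Neither passed the test, and TYR, the melanosome cargo tyrosinase, had 0 counts in all libraries.

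Neuronal genes are set beside AP3B2 because its product is the neuronal subunit. Of 8 neuronal markers tested 1 rose and 2 fell, 5 stayed short of the threshold, and the median was −0.17. Over all genes tested, 7.48% were called higher and 9.64% lower. DESeq2 called 1 neuronal marker higher and 3 lower. SYP, the synaptic vesicle protein synaptophysin, fell to 22.1 ± 4.40 CPM in shACSS2, against 41.1 ± 1.16 CPM in NS (log2 fold change −0.90, adjusted p = 0.000511, edgeR), and kept its call with each library left out. SYN1, which coats synaptic vesicles, stood at −0.85 (adjusted p = 0.0348, edgeR) and kept its call only without shACSS2 replicate 3, with adjusted p of up to 0.108 elsewhere. GAP43, a growth cone protein, stood at 0.88 (adjusted p = 0.00862, edgeR), a call lost without NS replicate 1 (adjusted p = 0.0587). STMN2, ELAVL3, ELAVL4, DCX, SNAP25, TUBB3 and MAP2 were below the level tested. The part of neuronal character in the fall of AP3B2 was not tested.

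Other marker lists were counted in the same way, beside the 7.48% of all genes called higher and 9.64% called lower. Of 6 adrenergic markers tested 1 rose and 3 fell, 2 stayed short of the threshold, and the median was −0.47. CHGA, a granin of secretory granules, had 0.589 ± 0.247 CPM in shACSS2 and 1.92 ± 0.318 CPM in NS (log2 fold change −1.68, adjusted p = 0.00798, edgeR) and kept its call with each library left out. CHGB, at −1.03, lost its call without NS replicate 1 or 3 or shACSS2 replicate 1 or 3, and MYCN, at −1.14, whichever library was left out, with adjusted p (edgeR) of up to 0.129 and 0.131. ISL1, a transcription factor of sympathetic neurons, rose by 0.51 and lost its call without NS replicate 1 or 3 or shACSS2 replicate 3, at up to 0.0955. Of 9 mesenchymal markers tested, with a median of 0.19, TWIST1 rose by 0.51 and FN1 fell by 0.40 on the log2 scale, and 7 stayed short of the threshold. FN1 lost its call without NS replicate 1 or 3, and TWIST1 also without shACSS2 replicate 2 or 3, at adjusted p (edgeR) of up to 0.0936 and 0.182. The mesenchymal list summed to 412 to 469 CPM in shACSS2 and 397 to 457 CPM in NS. None of the 7 embryonic kidney markers tested passed, with 1 higher and 1 lower at an unadjusted p under 0.05 and 0 by DESeq2 or voom, and their median was −0.04.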

How the data were processed

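RNA-seq read counts of 6 libraries were used as deposited: the authors' table holds whole-number counts per gene, not normalised, and every sample column was used (unused columns: 0). The submitters' processing notes name fastp, HISAT2 2.0.5, featureCounts 1.5.0-p3, DESeq2 (given as 4.3.1) and hg19. All 58735 identifiers are in GENCODE v29 (GRCh38), so the build of the alignment is unclear. No source used here states the strand setting or the handling of reads with several matches. The members and gene lists were chosen with earlier results of these data known. The value of a listed marker gene is not reported here.

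Tests used edgeR 4.0.16 in R 4.3.3 (TMM factors, default expression filter, robust quasi-likelihood F test, group as the only term). P-values were adjusted by Benjamini and Hochberg over 16210 genes, with a threshold of 0.05, and each standard error was the absolute log2 fold change divided by √F. The fit was tested on simulated data. Shares have exact Clopper-Pearson intervals at 95%. Named were all members, ACSS2, up to 4 called genes of at least 1 CPM per list by size of change (or 2 with the lowest p where none passed), and the 3 genes most like AP3B2 and AP3D1. AP1M2, other list genes, overlapping genes and neighbours were named after their values were seen. Alternatives were RLE factors, library totals, no filter, 1 CPM in 3 libraries, DESeq2 1.42.0, limma voom 3.58.1, a replicate block, a loess GC correction and leaving out each library. Between replicates, chi-square per degree of freedom ran from 4.28 to 17.3, so no pair of libraries agreed within counting noise, as 1 library deposited again would. Libraries were taken as replicates from the labels alone.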

Additional observations from a re-analysis of the deposited data

How the results depend on the processing

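AP3B2 was past the test and lower in all 15 alternatives. The log2 fold changes of the other members kept their side of the threshold in all 15, except AP3D1 without shACSS2 replicate 1 (0.28). PLAU, KAT6A, PLAT and TBCA were followed only with libraries left out. No other called gene named here changed sign, and scaled to library totals AP2B1, AP2S1, RAB32, TWIST1, ATG12 and CPEB1 lost their calls. With each library left out in turn, 310 to 1837 genes were higher and 708 to 2094 lower, against 1213 and 1563 with all 6, and 0 to 1 AP-3 genes were higher. The low ends came without NS replicate 1 and the high ends without shACSS2 replicate 1. With library totals in place of TMM factors, 734 genes were higher and 2108 lower, so 25.8% of calls were higher, against 43.7% with TMM factors, and the median of all genes moved to −0.07. A GC correction, chosen after seeing the data, gave 2153 higher and 2359 lower, and together with the replicate block 2221 higher and 2340 lower. The replicate numbers gave no sign of pairing: same-numbered libraries had correlations of −0.04, −0.07 and 0.11 in their deviations from the group means. Differently numbered libraries had −0.12 to 0.16. These values cannot show that the libraries were unpaired. The fit with the replicate block called 1283 genes higher and 1640 lower, with AP3B2 at −1.51, and TGFBRAP1 lost its call in it (adjusted p = 0.0543, edgeR). In both groups, ranks by coding length were 1 for AP3S1, 2 for AP3D1, 4 for AP3M2, 5 for AP3S2 and 6 for AP3B1, against 2, 1, 5, 6 and 4 by exon length. Of 24 called genes in the lists, 7 kept their call with each library left out and 17 lost it at least once. The causes were not tested. Depth limits AP3B2 most, with 83 counts in its lowest library.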

Other observations

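Genes next to AP-3 members on the chromosome were read as values only, after their levels had been seen. PLAU, 202758 bases from AP3M1, stood at 1.33 (adjusted p = 0.00185, edgeR) and kept its call with each library left out. KAT6A and PLAT, on either side of AP3M2, stood at −0.39 and 0.35, and TBCA, beside AP3B1, at 0.33. All passed with 6 libraries, but each lost its call in some fits with 1 left out, at adjusted p (edgeR) of up to 0.0933, 0.0869 and 0.157. ADK, the adenosine kinase gene 122 bases from AP3M1, had 90.5 ± 9.22 CPM in shACSS2 and 65.1 ± 6.55 CPM in NS (SD, n = 3 each), a log2 fold change of 0.47 (adjusted p = 0.00852, edgeR) that lost its call without NS replicate 1 (adjusted p = 0.0743, edgeR). ARPIN, an inhibitor of the Arp complex 368 bases from AP3S2, had 50.5 ± 5.69 CPM in shACSS2 and 63.6 ± 3.52 CPM in NS, at −0.33 (adjusted p = 0.0449, edgeR), a call kept only without shACSS2 replicate 1, with adjusted p (edgeR) of up to 0.175 elsewhere. DOT1L, a histone methyltransferase gene that overlaps AP3D1 with no shared exon base, had 102, 143 and 151 CPM in the shACSS2 libraries, against 143, 124 and 134 CPM in the NS libraries, with shACSS2 replicate 1 lowest as for AP3D1. The C15orf38-AP3S2 readthrough, not tested, held 2 counts over all libraries.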
